A study of Eonycteris spelaea and Mus musculus with 51 samples.

Results

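Blood was compared with muscle in the cave nectar bat Eonycteris spelaea at baseline, before any heat treatment. The comparison rests on 6 of the 51 libraries of the series, which are bat blood control 1 to 3 and bat muscle control 1 to 3, and on all 30017 rows of the bat count table. Per the labels, control animals were sampled before treatment, and the series also holds bat and mouse blood, lung and muscle taken right after 1 h of heat shock of the living animal, or after that shock and 4 h of recovery. The bats carry no stated allele or agent. The labels give neither their age, their sex, the muscle taken nor the fraction of blood used, and they do not say whether the 6 libraries come from separate animals or whether a blood and a muscle library of the same number share one. The p-values below therefore measure the spread between these libraries, which may in part be technical.

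Blood RNA comes mostly from white cells, from young red cells and from platelets, and its transcripts serve defence, antigen recognition and oxygen transport. Skeletal muscle is built of long fused fibres packed with sarcomeres, mitochondria and calcium-handling membranes, with blood vessels, nerves and connective tissue between them. A few contractile and energy genes supply much of the RNA of a muscle fibre. In RNA from whole tissue, fewer cells of a type and less RNA per cell cannot be told apart, and this holds for every difference below.

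Rows of the bat table carry different kinds of names, and this sets what can be said of each. Human gene identifiers label 18152 rows and are given here without gene names, since none of the sources used here pairs them with symbols. Mouse gene identifiers label 762 rows, of which 758 received a symbol from a mouse annotation, and 167 rows have a gene name in the table itself. A further 10328 rows are numbered non-coding RNAs, 564 are antisense rows, 15 are human identifiers with a suffix of unstated meaning and 29 are unnamed gene models. A symbol below is the label of a bat row, and whether that row is the true counterpart of the mouse gene was not tested. Of the 895 genes in 31 lists of tissue and pathway markers, 1 could be found by name, the endothelial gene KDR, so the tissue labels could be set against no other listed marker.

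Total counts ran from 17.4 to 19.8 M in the blood libraries and from 24.7 to 33.3 M in the muscle libraries. The most abundant row held 0.856 to 7.09% of counts in blood and 12.8 to 17.1% in muscle, where 66 to 99 rows made up 50% of all counts, against 341 to 737 rows in blood. Spread between libraries was larger in blood, with a common biological coefficient of variation of 0.456, than in muscle, with 0.305. Blood 3 stood apart in that its 10 most abundant rows held 25.8% of its counts, while the same rows held 4.03% in blood 1 and 7.85% in blood 2. Blood 2 stood apart more broadly. Levels are given as CPM, that is counts per M counts of a library after scaling. Of 9745 rows with at least 5 CPM in blood, 760 were over 2-fold above both other blood libraries in blood 2 and 667 were over 2-fold below both. The part of these libraries in the results was not tested beyond leaving each one out.

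Most of the measured transcriptome differed between the tissues. After a filter on low counts, 16327 rows were tested with edgeR's quasi-likelihood test, and 11229 of them (68.8%) were called at a Benjamini-Hochberg adjusted p under 0.05. Of these, 5485 rows (33.6% of those tested) were higher in blood and 5744 (35.2%) were lower in blood. The split depended on scaling: 48.8% of called rows were higher in blood with the scaling by trimmed mean of M values (TMM), and 62.1% with library size alone, which moved the median log2 ratio of all rows by 0.65. Without blood 2 there were 11660 called rows, and without blood 3 there were 11212.

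The differences were large. Among called rows, 3630 were over 4-fold higher and 3917 over 4-fold lower in blood, and 1817 and 2168 passed 16-fold. The middle 50% of all log2 ratios, blood over muscle, lay between -1.89 and 1.73. When the test asked whether the ratio exceeded 2-fold, 8577 rows (52.5%) were called, 4128 (25.3%) higher and 4449 (27.2%) lower in blood. The 3 blood libraries did not overlap the 3 muscle libraries in 12279 rows (75.2%), 5951 (36.4%) with blood above and 6328 (38.8%) with blood below.

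Some rows were read in 1 tissue alone. Reads were present in all 3 blood libraries and in no muscle library for 619 rows, while 1004 rows had reads in all 3 muscle libraries and none in blood. At the upper end, 110 rows averaged at least 100 CPM in blood and under 1 CPM in muscle, and 190 rows showed the reverse. A mean of at least 100 CPM was reached by 1622 rows in blood and by 1543 in muscle, and 470 rows reached it in both. No read was found in any of the 6 libraries for 7055 rows.

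**Figure D1:**
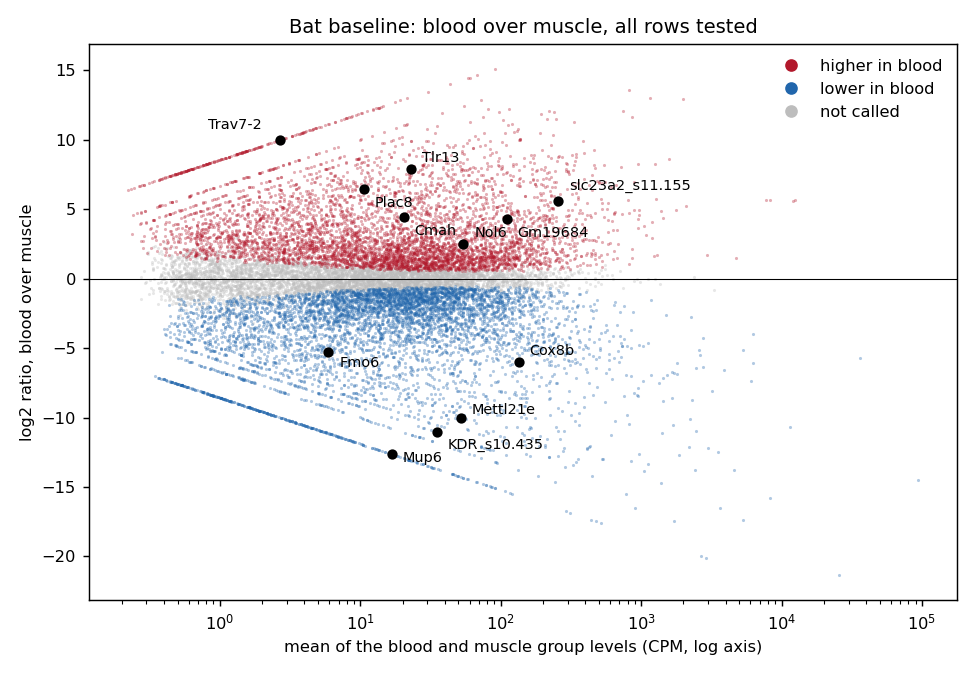
Each point is 1 of the 16327 rows tested, with the mean of its blood and muscle levels in CPM on a log axis across and the fitted log2 ratio, blood over muscle, up the page. Red rows were called higher in blood (5485), blue rows lower (5744) and grey rows were not called, black points mark some of the rows named in the text, and the straight lines of points at the edges are rows with few or no reads in 1 tissue.

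The unnamed rows with the largest differences were abundant in 1 tissue and nearly silent in the other. ENSG00000163220 had 2056, 7239 and 2601 CPM in blood and 0.485, 0.872 and 0.158 CPM in muscle. ENSG00000143546 had 1810, 3211 and 1952 CPM in blood, against 0.162, 0.291 and 0.395 CPM in muscle. The log2 ratio was 12.95 for ENSG00000163220 (SE 0.99, adjusted p = 1.19e-05) and 12.98 for ENSG00000143546 (SE 0.61, adjusted p = 2.81e-06) in the edgeR test with Benjamini-Hochberg adjustment. In both rows every blood library lay far above every muscle library, and none of the muscle libraries reached 1 CPM.

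On the muscle side, ENSG00000155657 was the most abundant row of all 3 muscle libraries. It had 6.41, 6.50 and 11.4 CPM in blood and 182600, 153800 and 224900 CPM in muscle, with a log2 ratio of -14.50 (SE 0.83, adjusted p = 3.9e-06). ENSG00000109061 had 1 read over the 3 blood libraries and 51480, 38390 and 62980 CPM in muscle. The interval of its muscle over blood ratio from counting error alone ran from 663000 to 146000000. Neither tissue's libraries came near the other's in either row.

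Rows that carry T cell receptor names were higher in blood without exception among those tested. The receptor recognises antigen on T lymphocytes and is assembled from variable (V), diversity (D), joining (J) and constant segments, so its transcripts mark T cells. The table holds 23 such rows, a group formed after their names were seen. Of these, 10 passed the filter and 10 were called higher in blood, with a median log2 ratio of 6.35, beside 33.6% called higher and a median of -0.01 over all rows tested. A row that is high in 1 tissue alone passes this filter only through that tissue. All 10 tested rows passed it through blood, with muscle means of at most 0.3025 CPM, so the count of 10 is no test of the group. Of the 23 rows, 3 had no read at all. Summed over the 23 rows, the level was 59.6, 21.6 and 122 CPM in blood 1, 2 and 3, and 0.323, 1.65 and 0.711 CPM in muscle. Blood 2 was the lowest and blood 3 the highest blood library, and the lowest blood sum was still above every muscle sum.

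The joining segment Traj15 led this group by level. It had 16.05, 5.157 and 33.42 CPM in blood and 0.162, 0.242 and 0.198 CPM in muscle, with a log2 ratio of 6.48 (SE 0.79, adjusted p = 0.000141). Traj21 had 9.40, 3.92 and 20.6 CPM in blood, against 0, 0.388 and 0.079 CPM in muscle, and Traj37 had 8.39, 3.97 and 20.7 CPM in blood, against 0.0404, 0.63 and 0.237 CPM in muscle. All 3 joining segments were ordered alike over the blood libraries, with blood 3 above blood 1 and blood 1 above blood 2. The same order held for the variable segments Trav7-2 (4.28, 1.08 and 10.8 CPM in blood) and Trav14-2 (3.86, 1.19 and 8.47 CPM in blood), which had no read in muscle. It did not hold for TRAV22_s7.883, another tested row of the group, with 0.348, 0.722 and 2.5 CPM in blood. With a floor of 3 reads over the muscle group, Trav7-2 was at least 131-fold and Trav14-2 at least 109-fold higher in blood. The beta chain segment Trbv12-2 was also without a read in muscle, at 0.835, 0.567 and 1.59 CPM in blood, which makes it at least 23.8-fold higher there.

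Receptor segments resemble each other in sequence, so the split of reads between these rows is uncertain. The 2 rows with immunoglobulin names, which would mark B cells, had at most 1.33 CPM in sum in any blood library and did not pass the filter. Both are single variable segments, Iglv1 and Ighv1-13. Rows with human identifiers could not be searched for B cell genes, so the level of B cell transcripts in blood was not tested.

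The other named rows highest in blood included Tlr13 and Plac8. Tlr13, which in the mouse senses bacterial ribosomal RNA inside endosomes, had 47.7, 71.8 and 18.2 CPM in blood and 0.121, 0.291 and 0.158 CPM in muscle. Its log2 ratio was 7.91 (SE 0.68, adjusted p = 2.16e-05). Plac8, a small cysteine-rich protein found in many white cells, had 27.7, 17.4 and 17.7 CPM in blood and 0.283, 0.291 and 0.119 CPM in muscle, a log2 ratio of 6.49 (SE 0.47, adjusted p = 9.33e-06). Both genes were well apart between the tissues, but Tlr13 varied more over the blood libraries than Plac8 did.

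Trem3, an activating receptor of mouse myeloid cells, had 1.67, 2.42 and 1.89 CPM in blood and no read in muscle, so that it was at least 45.9-fold higher in blood. Btnl10, a butyrophilin-like gene, likewise had no muscle read, with 7.38, 0.722 and 6.88 CPM in blood, and was at least 127-fold higher there. Its blood 2 value lay far under the other blood libraries. Ngp, a protein of neutrophil granules, had 0.626, 0.825 and 0.602 CPM in blood and 0, 0.339 and 0 CPM in muscle, with a log2 ratio of 2.64 that was not called (adjusted p = 0.0642). Without muscle 2 its log2 ratio was 7.05 and it was called (adjusted p = 0.00456), and muscle 2 held all of its muscle reads.

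Membrane transport and sugar chemistry gave further named rows. The row slc23a2_s11.155, named for a sodium-dependent vitamin C transporter, was the most abundant named row on the blood side, with 372.3, 817.9 and 324.5 CPM in blood and 8.763, 14.25 and 8.26 CPM in muscle. Its log2 ratio was 5.60 (SE 0.50, adjusted p = 2.72e-05). Cmah, the enzyme that makes the sialic acid Neu5Gc and is inactive in human, had 35.8, 33.8 and 47.7 CPM in blood, against 1.94, 2.96 and 0.553 CPM in muscle, a log2 ratio of 4.43 (SE 0.56, adjusted p = 0.000179). Smpd5, a sphingomyelinase, had 27.4, 30.9 and 33.9 CPM in blood and 4.32, 3.44 and 2.37 CPM in muscle, with a log2 ratio of 3.19. The blood and muscle libraries did not overlap in any of the 3 rows.

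Nol6, a nucleolar protein of ribosomal RNA processing, had 57.9, 167 and 52 CPM in blood and 16, 15.4 and 16.9 CPM in muscle, and its log2 ratio was 2.52 (SE 0.46, adjusted p = 0.00136). Muscle libraries hardly differed, while blood 2 was well above the other blood libraries. Irs3, an adaptor of the insulin receptor, had 3.76, 9.33 and 5.98 CPM in blood and 0.404, 0 and 0.0395 CPM in muscle. Nradd, a death-domain protein related to neurotrophin receptors, had 9.68, 26.5 and 7.10 CPM in blood, against 0.929, 0.775 and 0.119 CPM in muscle. Blood 2 was the highest library in these 3 genes, and in all of them every blood library lay above every muscle library. Hist1h2af, a histone H2A made during DNA replication, had 9.29, 4.90 and 10.6 CPM in blood and 0.888, 1.94 and 2.29 CPM in muscle, a log2 ratio of 2.27, and near-identical histone copies make the split of its reads uncertain.

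Neighbouring mouse genes Muc19, a gel-forming mucin, and Smgc, a secreted salivary gland protein, were both higher in blood. Muc19 had 5.85, 14.7 and 4.34 CPM in blood and 0, 0 and 0.158 CPM in muscle. Smgc had 0.975, 2.17 and 0.473 CPM in blood and 1 read in muscle, so its blood over muscle ratio had a counting interval of 14 to 3210. The 2 rows share 1 order over the blood libraries, with blood 2 highest and blood 3 lowest. In bat lung, neither exceeded 0.0649 CPM (lung levels here and below are scaled over all 27 bat libraries).

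Some transcripts known by number alone were higher in blood. Gm6034 had 179, 262 and 167 CPM in blood and 24.3, 34.7 and 38.6 CPM in muscle, Gm19684 had 195, 193 and 240 CPM in blood and 19.9, 6.11 and 6.44 CPM in muscle, and Gm6377 had 22.6, 24.9 and 9.72 CPM in blood and 3 reads in muscle. All 3 were called, and the interval of the blood over muscle ratio of Gm6377 was 153 to 2180. Over the 237 rows with Gm numbers or clone names, 41 were tested, of which 17 were higher and 10 lower in blood and 14 were not called, beside 33.6% higher and 35.2% lower over all rows tested.

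On the muscle side, the rows lowest in blood by the naming rule included Cox8b and Mettl21e. Cox8b, the heart and muscle form of a cytochrome c oxidase subunit, had 3.69, 4.02 and 4.69 CPM in blood and 309, 288 and 197 CPM in muscle. Its log2 ratio was -6.00 (SE 0.33, adjusted p = 3.54e-06). Mettl21e, a lysine methyltransferase of mouse skeletal muscle, had 0.174, 0 and 0.086 CPM in blood, against 84, 144 and 84.1 CPM in muscle, a log2 ratio of -10.01 (SE 0.63, adjusted p = 5.47e-06). Both were low in bat lung too: Cox8b had 3.90 to 14.8 CPM there and Mettl21e 0 to 0.343 CPM.

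KDR, the endothelial receptor for vascular growth factor, was the only listed cell type marker found by name. Its row KDR_s10.435 had 0.0696, 0 and 0 CPM in blood and 62.5, 75.2 and 71.6 CPM in muscle, that is 2 reads against 4914. The muscle over blood ratio had a counting interval of 686 to 20500. Bat lung, another tissue rich in vessels, had 114, 89.9 and 86.3 CPM. The share of endothelial cells in the muscle samples, and the part of such cells in other rows lower in blood, was not tested.

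Mup6 was a further row seen in muscle alone. Major urinary proteins are small lipocalins that carry odorants in mouse urine and are made mainly in the liver there. The row Mup6 had no read in blood and 17.8, 58.3 and 25.2 CPM in muscle, so it was at least 768-fold lower in blood, and it had no read in the 3 bat lung control libraries. Of 9 rows with Mup names, 3 had no read in the 6 libraries and Mup6 alone passed the filter. Summed over the 9 rows, the level was 0.0348, 0 and 0 CPM in blood and 18.3, 68.4 and 40 CPM in muscle. Muscle 2 was the highest and muscle 1 the lowest muscle library.

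Fmo6, a flavin-containing monooxygenase, had 0.592, 0.0516 and 0.172 CPM in blood and 11.6, 12 and 11.1 CPM in muscle, and reached 40.8 to 55.9 CPM in bat lung. Gpr165, an orphan receptor, had 4.14, 0.567 and 6.97 CPM in blood, against 24.3, 41 and 46.7 CPM in muscle, a log2 ratio of -3.25 (SE 0.73, adjusted p = 0.00398). Muscle was thus above blood in every library of both genes. CUTA_s7.240, named for a protein linked to the membrane anchoring of acetylcholinesterase, had 3.48, 2.63 and 4.90 CPM in blood and 10.1, 13.5 and 8.73 CPM in muscle, with a log2 ratio of -1.55 (adjusted p = 0.00527), and the call was lost with library size alone (adjusted p = 0.0808). Gm20721 had 14.6, 15.4 and 15.9 CPM in blood and 42.4, 41.3 and 54.8 CPM in muscle, with a log2 ratio of -1.60.

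Further rows lower in blood included a related pair. Casp16-ps, from the mouse annotation, and CASP16_s8.140, named in the table, both refer to caspase 16. Casp16-ps had 0.0696, 0.0516 and 0.387 CPM in blood and 3.35, 1.94 and 4.15 CPM in muscle, while CASP16_s8.140 had 2 reads in blood and 2.22, 1.79 and 2.69 CPM in muscle. Both were called lower in blood. Pcdhb21, a clustered protocadherin of cell adhesion, had no read in blood and 2.18, 2.04 and 1.54 CPM in muscle, at least 45.4-fold lower in blood. The row urah_s14.1009, named for an enzyme of urate breakdown, had no read in blood and 5.05, 2.08 and 0.949 CPM in muscle, at least 64.6-fold lower in blood. Ahsa2, related to an activator of the chaperone HSP90, had 1.32, 0.722 and 1.38 CPM in blood and 2.99, 3.54 and 8.26 CPM in muscle, with a log2 ratio of -2.10 (adjusted p = 0.00895) that was not called with library size alone (adjusted p = 0.0511).

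Single libraries stood out in some of the low-level rows. BC067074 had 0.0348, 0 and 0.043 CPM in blood, that is 2 reads, and 1.70, 4.60 and 21 CPM in muscle, with muscle 3 far above the other muscle libraries. Whichever library was left out, its log2 ratio lay between -8.62 and -6.59 and it stayed called lower in blood. Fer1l4, a ferlin pseudogene in human, had 0.87, 2.11 and 0.559 CPM in blood and 2.30, 0.339 and 24.4 CPM in muscle, and its log2 ratio of -2.95 was not called (SE 1.29, adjusted p = 0.0705). The tissues overlapped in Fer1l4 and did not in BC067074. Without muscle 3 the log2 ratio of Fer1l4 was -0.19 (adjusted p = 0.871), and without muscle 2, the library with the least of it, -3.53 (adjusted p = 0.0152).

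A few rows that differed between blood and muscle were far more abundant in lung. Aox2, an aldehyde oxidase, had 1.84, 0.928 and 0.903 CPM in blood and 0.0404, 0.145 and 0 CPM in muscle, with a log2 ratio of 4.29 (SE 0.91, adjusted p = 0.00288). In bat lung the same row had 178, 409 and 106 CPM. Pcdhb21 too had more in lung, with 4.69 to 6.10 CPM, than in either tissue compared here.

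**Figure D2:**
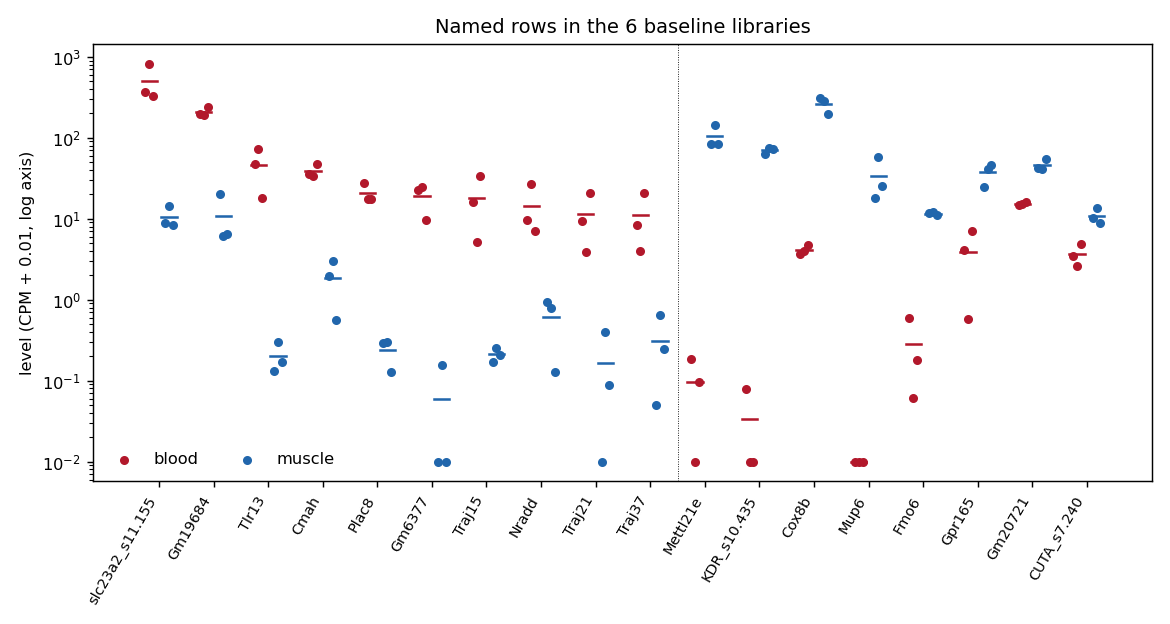
Levels of 18 named rows, as CPM plus 0.01 on a log axis, in the 3 blood libraries (red, left of each pair) and the 3 muscle libraries (blue, right), with a short line at each mean. The 10 rows left of the dotted line were highest in blood by the naming rule and the 8 on the right were lowest, and the 2 tissues do not overlap in any of them, which the rule required.

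Over all 925 rows with a symbol or a table name, 545 had no read in the 6 libraries. Of the 133 tested, 60 were higher and 29 lower in blood and 44 were not called, with a median log2 ratio of 1.11, beside 33.6% higher and 35.2% lower over all rows tested. Chemosensory names made up much of the silent part: 293 of 321 olfactory receptor rows and 33 of 34 vomeronasal receptor rows had no read. The 2 olfactory receptor rows that were tested went opposite ways. Olfr390 had 7.38, 5.11 and 6.45 CPM in blood and 0.162, 0.484 and 0.395 CPM in muscle, and Olfr639 had no read in blood and 0.888, 3.34 and 1.26 CPM in muscle. Zinc finger names were mostly not called (5 of 6 tested), with Zfp184 higher in blood at 17.6, 9.23 and 18.3 CPM, against 6.26, 6.59 and 3.24 CPM in muscle.

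Some abundant named rows had small ratios between the tissues. EIF4G2_s4.922, named for a translation initiation factor, had 762, 464 and 488 CPM in blood and 868, 956 and 896 CPM in muscle. Its log2 ratio of -0.67 was not called (SE 0.30, adjusted p = 0.0789). Rbak, a zinc finger repressor, had 54, 67.2 and 40 CPM in blood and 75.4, 84.5 and 87.1 CPM in muscle, a log2 ratio of -0.62 (SE 0.25, adjusted p = 0.0573). In both rows every blood library was below every muscle library, the calls were missed, and with library size alone the signs turned to log2 ratios of 0.02 for EIF4G2_s4.922 and 0.03 for Rbak. EIF4G2_s4.922 was called lower in blood with DESeq2 (adjusted p = 0.0402), with all 27 bat libraries (adjusted p = 0.0301) and without blood 1 (adjusted p = 0.0295), and Rbak without blood 2 (adjusted p = 0.00956). After heat shock both were called lower in blood, with adjusted p = 0.0427 for EIF4G2_s4.922 and 0.00322 for Rbak.

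Rows that carry a human identifier with a suffix were called higher in blood wherever they were tested. Of the 15 such rows, 8 were tested and 8 were called higher in blood, beside 33.6% of all rows tested. The 6 rows with the suffix l6 summed to 9860, 12200 and 11200 CPM in blood and 316, 413 and 400 CPM in muscle, and the log2 ratios of the 5 that were tested lay between 4.67 and 4.94. The 2 rows with the suffix l4 summed to 1100, 1090 and 840 CPM in blood, against 139, 182 and 204 CPM in muscle, with log2 ratios of 2.36 and 2.74. The l6 rows were thus alike in ratio and the l4 rows had smaller ones. The remaining tested row, with the suffix A, had 6.51, 26.6 and 144 CPM in blood and 0.929, 1.02 and 0.790 CPM in muscle, a log2 ratio of 6.01, and its blood libraries were far apart. The 6 rows with other suffixes were at or near 0 in both tissues. The 15 rows carry 7 different human identifiers. ENSG00000234745 and ENSG00000206503 were each tested with both l4 and l6, so the 8 calls are not of 8 separate identifiers. Whether the rows are copies is not stated, and if they are, they may share reads and the split is uncertain. Together the 15 rows took 1.47 to 1.59% of the counts in blood and 0.0367 to 0.0497% in muscle.

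Numbered non-coding and antisense rows were more often called higher than lower in blood, and rows with human identifiers more often lower, an order that turned for the human identifiers with library size alone (5420 higher and 3821 lower). Of 2750 numbered non-coding RNA rows tested, 1232 (44.8%) were higher and 551 (20%) lower in blood, with a median log2 ratio of 1.01. Without the low-count filter, 1445 such rows were higher and 832 lower, so the order held but the gain was mostly on the lower side. Of 13297 rows with human identifiers, 4132 (31.1%) were higher and 5139 (38.6%) lower in blood, and their median was -0.20. The numbered non-coding rows held 2.68 to 3.98% of counts in blood and 1.73 to 1.84% in muscle, so no blood library overlapped a muscle library. Rows with mouse identifiers gave 56 higher (47.9%) and 23 lower (19.7%) of 117 tested, and 36 lower without blood 2.

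Antisense rows lie opposite a gene on the other strand. Of 127 tested, 46 (36.2%) were higher and 22 (17.3%) lower in blood, beside 33.6% higher and 35.2% lower over all rows tested, so the share called higher was near that of all rows. Of these, 95 had a tested sense partner, and the log2 ratios of row and partner shared their sign in 76 pairs. Both were called in 45 pairs: 31 pairs were higher in blood together, 11 were lower together and 3 went opposite ways. The strand setting of the counting is not stated, so reads of an antisense row and of its partner cannot be told apart. The antisense rows held 0.260 to 0.356% of counts in blood and 0.0652 to 0.0779% in muscle.

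**Figure D3:**
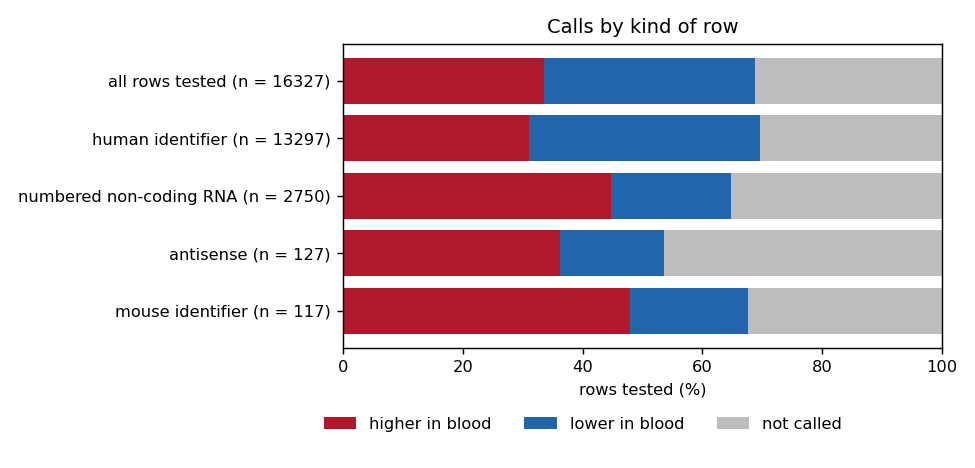
Bars give, for each kind of row, the percentage of tested rows called higher in blood (red), called lower (blue) and not called (grey). Numbered non-coding RNA rows were called higher in blood more often (44.8%) than lower (20%), while rows with human identifiers were called lower more often (38.6%) than higher (31.1%) with TMM scaling and the other way round with library size alone.

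The tissue difference was measured again in libraries that the baseline comparison did not use. In the 3 blood and 3 muscle libraries taken right after heat shock, 16471 rows were tested and 11546 (70.1%) were called, 5912 (35.9%) higher and 5634 (34.2%) lower in blood. After recovery, 16592 were tested and 9665 (58.3%) were called, 4864 (29.3%) higher and 4801 (28.9%) lower. Of the rows higher in blood at baseline and tested in both, 5023 of 5354 were called so after heat shock, which is 93.8% of the baseline list and 88.6% of the list after heat shock. Of those lower in blood, 5030 of 5587 were called again (90% of the baseline list and 91.5% of the other). After recovery, 4185 of 5341 higher rows (78.4%, and 90.7% of the recovery list) and 4299 of 5609 lower rows (76.6%, and 92.1%) were called again.

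Calls in the opposite direction were rare. Among rows lower in blood at baseline, 2 were called higher after heat shock, and 1 after recovery. Among rows higher in blood at baseline, none was called lower after heat shock, and 4 were after recovery. In all 3 conditions, 4025 rows were called higher and 4092 lower in blood, of 15641 tested in all of them. Recovery calls depended on 1 library more than the others did: without blood recovery 2, 12245 rows were called.

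Of the 61 named rows called at baseline, 58 were tested after heat shock and 55 were called, and 55 were tested after recovery and 48 were called, all in the baseline direction. Among all rows called at baseline, 93.8% of the higher and 90% of the lower ones were called again after heat shock. After recovery the shares were 78.4% and 76.6%. The named rows were chosen by their baseline values, so their counts add no support beyond these shares. Tlr13 had 44.5, 23.6 and 70.5 CPM in blood after heat shock and 0, 0.124 and 0.313 CPM in muscle, and 40.7, 32.5 and 43.1 CPM in blood after recovery and 0.29, 0.57 and 0.203 CPM in muscle. Its log2 ratio was 8.24 after heat shock (adjusted p = 8.36e-05) and 6.74 after recovery (adjusted p = 6.97e-05). The log2 ratio of Cox8b was -6.00 at baseline, -5.42 after heat shock and -5.35 after recovery. For KDR_s10.435 it was -11.05, -11.92 and -10.63, and for Mup6 it was -12.64, -11.2 and -10.7, all called. No blood library of any condition exceeded 0.0696 CPM for KDR_s10.435 or 0.129 CPM for Mup6. The sizes of these ratios therefore rest on few or no blood reads and cannot be compared between conditions.

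The 3 named rows that missed the call after heat shock were Gpr165, Prorsd1 and Nsun4, and the 7 that missed it after recovery were CUTA_s7.240, Ahsa2, Aox2, Zfp184, Fndc3c1, Prorsd1 and Cryzl2. Gpr165 had a log2 ratio of -1.21 after heat shock (adjusted p = 0.464). After recovery, that of Fndc3c1, a fibronectin-domain gene, was 0.78 (adjusted p = 0.2), that of Zfp184 was 0.16 (adjusted p = 0.819) and that of CUTA_s7.240 was -0.79 (adjusted p = 0.178). Whether these ratios differ between the conditions was not tested, and a missed call does not show that they do.

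**Figure D4:**
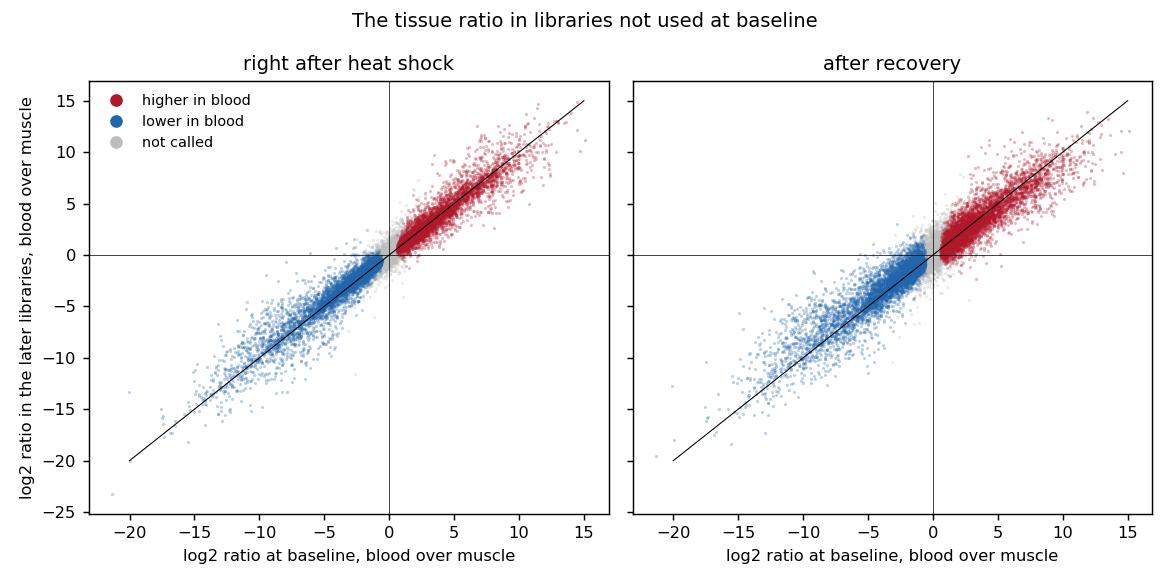
Each point is a row tested at baseline and in the later condition, with its baseline log2 ratio, blood over muscle, across and its log2 ratio right after heat shock (left) or after recovery (right) up the page. Colours give the baseline call (red higher in blood, blue lower, grey not called), the diagonal marks equal ratios, and called rows lie in the same quadrant with few exceptions.

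The same tissue ratio can be set beside that of the mouse for 62 symbols that occur in both tables and passed the filter in both species. The bat libraries are the 6 above, and the mouse libraries are 2 of blood and 3 of muscle from control mice. This comparison was added after the data were seen. In 1 edgeR fit of the 62 genes, the log2 ratio differed between the species in 35 genes (56.5%), 27 (43.5%) higher and 8 (12.9%) lower in the bat, and the sign was the same in both species for 40 of the 62. Without mouse blood 1, 21 genes were called.

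Mettl21e was muscle-rich in both species, with log2 ratios of -10.03 in the bat and -10.45 in the mouse, whose difference of 0.42 was not called (SE 0.54, adjusted p = 0.482). It had 0 and 0 CPM in mouse blood and 3.63 to 9.6 CPM in mouse muscle. The sizes of its mouse ratio and of the difference are therefore no bound, and the missed call does not show equal ratios. Cmah had log2 ratios of 4.43 in the bat and 3.16 in the mouse, and Smpd5 had 3.19 in the bat and 2.19 in the mouse. Neither difference was called (adjusted p = 0.195 and 0.105), and with library size alone both were (adjusted p = 0.0286 and 0.0047). Irs3 was higher in blood in the bat and had the opposite sign in the mouse, with 0.122 and 0 CPM in mouse blood and 2.19, 5.77 and 1.39 CPM in mouse muscle. Its difference, bat minus mouse, was 11 (SE 1.74, adjusted p = 0.000802), and since mouse blood was at or near 0 its size is no bound.

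**Figure D5:**
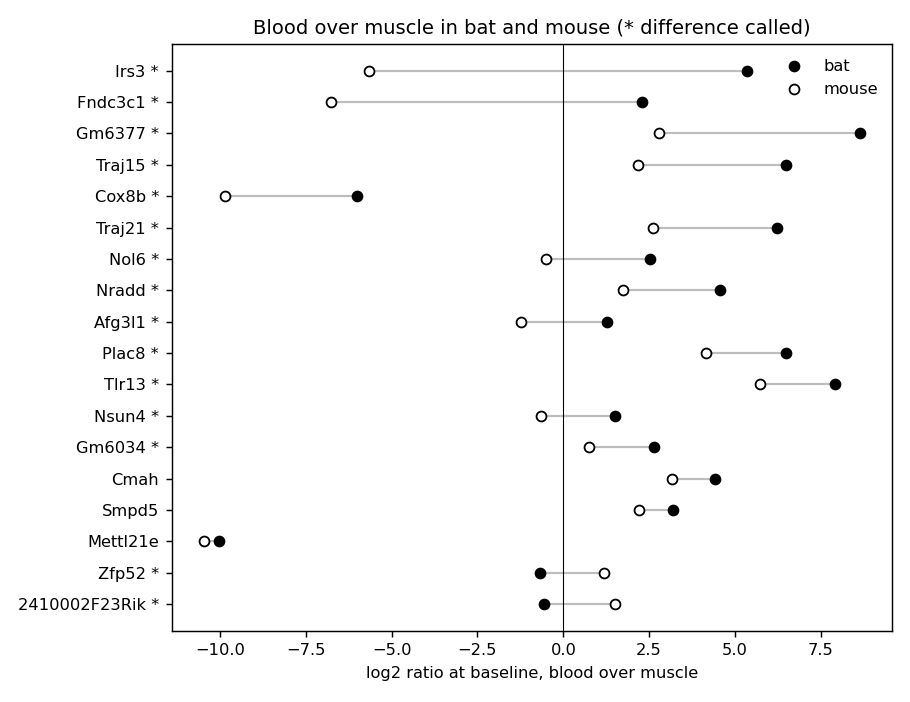
Log2 ratios at baseline, blood over muscle, of 18 genes in the bat (filled) and in the mouse (open), in order of the difference, bat minus mouse, with an asterisk where the difference was called in the joint edgeR fit. Irs3 and Fndc3c1 lie on opposite sides of 0 in the 2 species, and Cmah, Smpd5 and Mettl21e carry no asterisk.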

How the data were processed

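The authors deposited raw read counts per row and library, with no normalization, per the file headers and the values. STAR 2.7 and featureCounts (version not given in the sources used here) are the tools listed in the submitters' processing notes, which give build GRCm39 for bat and mouse alike, no bat assembly and no strand setting. Per the labels' protocols, TRIzol RNA went into NEBNext Ultra Directional libraries.

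The low-count filter was filterByExpr with a minimum count of 10 and a minimum total of 15. After TMM scaling, rows were tested in edgeR 4.0.16 (robust quasi-likelihood, limma 3.58.1, R 4.3.3), with tissue as the only term, on the 6 libraries of a condition. Calls are at a Benjamini-Hochberg adjusted p under 0.05 over all rows tested. Fold ratios against a group without reads use a floor of 3 reads over that group, and counting intervals are exact 95% intervals, both for counting error only. Levels are TMM-scaled CPM, not divided by length, so they were compared within a row only. DESeq2 1.42.0, other scalings and filters, more libraries, a replicate block and leaving out each library were tried as alternatives. The scripts were tested on simulated data.

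The comparison and all lists were chosen with earlier results of these data known. Named rows are the 10 highest and lowest in blood by log2 of (mean CPM + 1), among called rows with a name, 5 CPM or more on average over the 6 libraries and tissues that do not overlap (15 rows qualified on the blood side and 8 on the muscle side), and 2 unnamed identifiers a direction. A panel of 86 genes was to be named as well, and 0 of them could be found by symbol. The other rows named, and groups by name, were chosen after their values were seen. No library was a copy of another: squared differences in counts exceeded counting error at least 69-fold in each pair of a tissue. Deviations of same-numbered blood and muscle libraries correlated at 0.03, -0.02 and 0.03, which cannot show whether they share an animal. Of 5 tested l6 rows, 3 had the same order of replicate numbers in blood and muscle, beside 14.4% of 7543 background rows. The numbers were not taken to pair libraries, and whether they do was not tested.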

Additional observations from a re-analysis of the deposited data

Results flagged for a closer look

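The tissue ratio, blood over muscle, differed between bat and mouse for 35 of 62 shared symbols, 14 of which reached a mean of 10 CPM in some group, by the interaction term of an edgeR fit with Benjamini-Hochberg adjustment. Differences below are on the log2 scale, bat minus mouse, and no explanation was tested. The genes share a symbol, and the bat and mouse tables were made separately, so a row of the bat may not count the same gene as its namesake.

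Fndc3c1 differed by 9.06 (SE 1.60, adjusted p = 0.00123): it had 13.2, 21.4 and 3.70 CPM in bat blood and 4, 1.94 and 1.86 CPM in bat muscle, and no read in mouse blood, against 0.526, 0.477 and 0.495 CPM in mouse muscle. With mouse blood at 0, the size of that difference is no bound. Cox8b, muscle-rich in both species, differed by 3.86 (SE 0.47, adjusted p = 0.000161), with 3.69 to 4.69 CPM in bat blood and 197 to 309 CPM in bat muscle, and 0.0407 and 0.0684 CPM in mouse blood and 51.3 to 61.3 CPM in mouse muscle. Its mouse blood level was near 0, so the size of the difference is uncertain. Nol6 differed by 3.03, with log2 ratios of 2.52 in the bat and -0.51 in the mouse. Among genes with a positive log2 ratio in both species, the difference was 5.84 for Gm6377 (3 reads in bat muscle, and 9.27 without bat muscle 2, which held them all), 4.33 for Traj15, 3.61 for Traj21, 2.82 for Nradd, 2.35 for Plac8, 2.19 for Tlr13 and 1.88 for Gm6034. The difference was 2.13 for Nsun4, which was higher in blood in the bat and had a negative log2 ratio in the mouse. It was 2.50 for Afg3l1, -1.87 for Zfp52 and -2.06 for 2410002F23Rik, whose bat ratios were not called (adjusted p = 0.129, 0.347 and 0.36) and whose bat tissues overlapped. With library size alone the difference was -0.54 for Zfp52 (adjusted p = 0.589) and -0.68 for 2410002F23Rik (adjusted p = 0.465), and neither was called.

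Of these, Tlr13, Traj21, Zfp52, Nradd, Afg3l1 and 2410002F23Rik lost the call without 1 or more single libraries: without mouse blood 1 the adjusted p was 0.113, 0.0978, 0.0842, 0.101, 0.0599 and 0.0599 in that order.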

How the results depend on the processing

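The counts of called rows at baseline stayed within 1.5 times of 11229 under every alternative run, from 8577 when tested against a 2-fold difference to 13153 in a fit of all 27 bat libraries; DESeq2 called 12732 rows. Leaving out each library gave 10277 to 11660 called rows at baseline (4993 to 5563 higher and 5282 to 6097 lower in blood), 10449 to 11993 after heat shock (5256 to 5849 higher, 5115 to 6144 lower) and 7758 to 12245 after recovery (3715 to 6006 higher, 4038 to 6239 lower), and 21 to 38 genes for the species difference. With library size alone, recovery gave 7452 higher and 3138 lower rows and moved the median log2 ratio by 1.0. Under that setting the share of called rows that were higher in blood was 62.1% at baseline, 65.5% after heat shock and 70.4% after recovery, beside 48.8, 51.2 and 50.3% with TMM. The signs of 4 rows that were not called turned with library size alone: Rbak to a log2 ratio of 0.03, EIF4G2_s4.922 to 0.02, Zfp52 to 0.01 and 2410002F23Rik to 0.13. The uncalled species difference of Mettl21e turned to -0.51 without bat blood 1 and reached 0.90 without bat blood 2. Of the 61 called rows among the 70 named, 4 lost the call in some alternative: CUTA_s7.240, Ahsa2, Zfp184 (against 2-fold, adjusted p = 0.0834) and Nsun4, which was the only one to lose it without 1 library. Among kinds of rows, numbered non-coding rows lower in blood numbered 838 with DESeq2, 832 without the filter and 961 with all 27 libraries, beside 551, mouse-identifier rows lower in blood 45, 45 and 42, beside 23, and antisense rows lower in blood 12 with library size alone, beside 22. The cause of these changes was not tested. With the replicate number as a block, though the numbers were not shown to pair libraries, 10597 rows were called at baseline, 11247 after heat shock and 8420 after recovery. Rows without a muscle or blood read limit a fold to its floor.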
